A study of Homo sapiens with 4 samples.

Results

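Genes of mitochondrial and peroxisomal fatty acid oxidation were examined in RNA-seq of lung adenocarcinoma cells after circZFR silencing. The 38 genes were chosen by name, as members of the carnitine shuttle, beta-oxidation, the electron transfer flavoprotein and peroxisomal oxidation together with their regulators, and all 38 were found among the 40205 genes listed. The NC group held 2 libraries of cells given a control siRNA and the si-circZFR group 2 libraries of cells given siRNA against circZFR, a circular RNA made from exons of *ZFR*. Both groups were harvested 24 h after transfection, and no genetic change or drug is named for either. The sample labels name H1299 cells, whereas the design text names A549 cells. Both are human lung cancer lines, and which of them was sequenced was not settled here. Levels are given here as RPKM (reads divided by gene length and by library size), scaled between libraries, and can therefore be compared between genes. The leukocyte markers *PTPRC*, *CD3E* and *MS4A1* were listed at 0 in all 4 libraries, whereas the fourth of the list, *CD14*, stood at 6.11 and 5.75 in NC and at 7.79 and 8.04 in si-circZFR. The labels do not say whether replicates came from separate cultures, so p-values measure the spread between these libraries, which may be technical.

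Long-chain fatty acids are activated to acyl-CoA by ACSL enzymes and carried into mitochondria as carnitine esters, which CPT1 forms at the outer membrane and CPT2 turns back into acyl-CoA inside. Each round of beta-oxidation then runs through an acyl-CoA dehydrogenase, a hydratase, a hydroxyacyl-CoA dehydrogenase and a thiolase, and yields acetyl-CoA. Electrons from the first step pass through the electron transfer flavoprotein to ubiquinone, so the pathway feeds OXPHOS. Peroxisomes shorten very long and branched chains with their own oxidases, and nuclear receptors of the PPAR family with their PGC-1 coactivators control many of these genes.

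The libraries held between 11040050 and 12816868 reads. *ZFR*, the host gene of the circle, stood at 26.0 and 31.8 in NC and at 5.26 and 4.63 in si-circZFR (log2FC = -2.33, standard error 0.17, FDR = 0.0386 by limma). A value per gene cannot tell reads of the circle from reads of the linear transcript. The NC libraries differed from each other with transcript length, with a Spearman rho of -0.337 between the NC 2 over NC 1 ratio and length across genes, which are not independent replicates. The log2FC of si-circZFR against NC also went with length, with a rho of 0.290 across genes. Of 7 markers of a lung carcinoma line, 6 were higher in si-circZFR, all of them epithelial, 3 with an unadjusted p under 0.05 by limma. Over all genes tested, 10.2% were higher at that p. Among the 3, *EPCAM* held 2 and 2 recovered reads in NC and 9 and 14 in si-circZFR. *EPCAM* reached the RPKM of 1 needed for testing only in si-circZFR, so its direction and lack of overlap were fixed by the filter. *KRT7*, among the 6, overlapped between groups. The seventh marker, the mesenchymal *VIM*, stood at 566.0 and 663.3 in NC and at 558.1 and 528.2 in si-circZFR. The summed level of the 7 ran from 4296 to 5422 in NC and from 5630 to 5957 in si-circZFR. *CDH1* stood at 11.4 and 8.50 in NC and at 21.7 and 21.3 in si-circZFR. Of 8 genes listed as markers of A549 cells, 5 were higher and 3 lower. The fibrinogen genes *FGA*, *FGB* and *FGG* were higher in both si-circZFR libraries, and *NQO1*, a quinone reductase, was lower in both, at 423.2 and 577.6 in NC and 349.5 and 369.6 in si-circZFR. The summed level of the 8 ran from 2997 to 3969 in NC and from 3160 to 3386 in si-circZFR. The part of these differences in the results below was not tested.

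None of the 38 genes passed the threshold of FDR under 0.05 with |log2FC| over 1. Of these genes, 35 reached an RPKM of 1 in 2 or more libraries and were tested, and the smallest FDR was 0.116. Over all 13885 genes tested, 8 passed (0.0576%), so a list of this size would hold few calls at the background rate. At an unadjusted p under 0.05, 8 of the 35 genes were higher and 2 lower in si-circZFR, against 10.2% and 11.5% of all genes tested. The 8 were *ACADM*, *ACADSB*, *ACADVL*, *ACAD8*, *ACAD10*, *ECI1*, *DECR2* and *EHHADH*, and the 2 were *CPT1A* and *CPT1C*. *CPT1C* reached an RPKM of 1 only in NC, so its direction and lack of overlap were fixed by the filter. Both si-circZFR libraries lay above both NC libraries in 14 genes and below them in 4, where the background shares were 28.3% and 27.9%. In total 18 of 35 (51.4%) did not overlap, below the 56.2% of all genes tested. The median log2FC was 0.05, against 0.01 over all genes, and the range ran from -0.76 to 0.98. These counts depend on single libraries. Without NC 1, 7 genes were higher and 4 lower at an unadjusted p under 0.05, and without NC 2, 7 were higher and 1 lower. Without si-circZFR 1, 3 were higher and 0 lower, and without si-circZFR 2, 0 were higher and 1 lower. With 1 library left in a group, its spread is assumed to equal that of the other group. In bulk cultures, fewer cells with a transcript and less transcript per cell cannot be told apart.

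**Figure D1:**
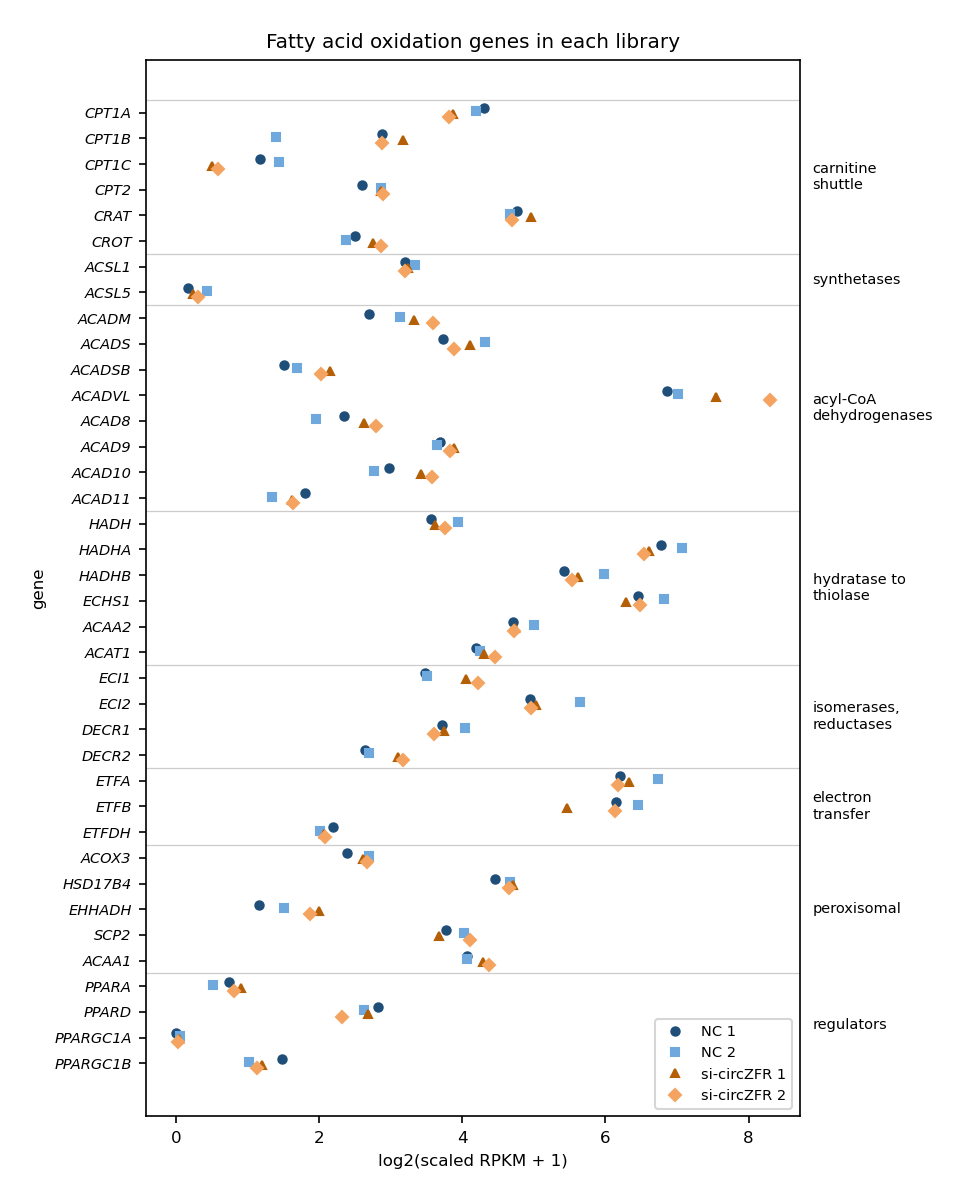
Levels of the 38 fatty acid oxidation genes in each of the 4 libraries, as log2(scaled RPKM + 1) on the horizontal axis and with genes grouped by role. NC libraries are blue and si-circZFR libraries orange. Of the 35 genes tested 18 (51.4%) do not overlap between groups, against 56.2% of all genes tested. For 6 of the 8 acyl-CoA dehydrogenases both orange points lie to the right of both blue ones, against 28.3% of all genes tested.

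**Figure D2:**
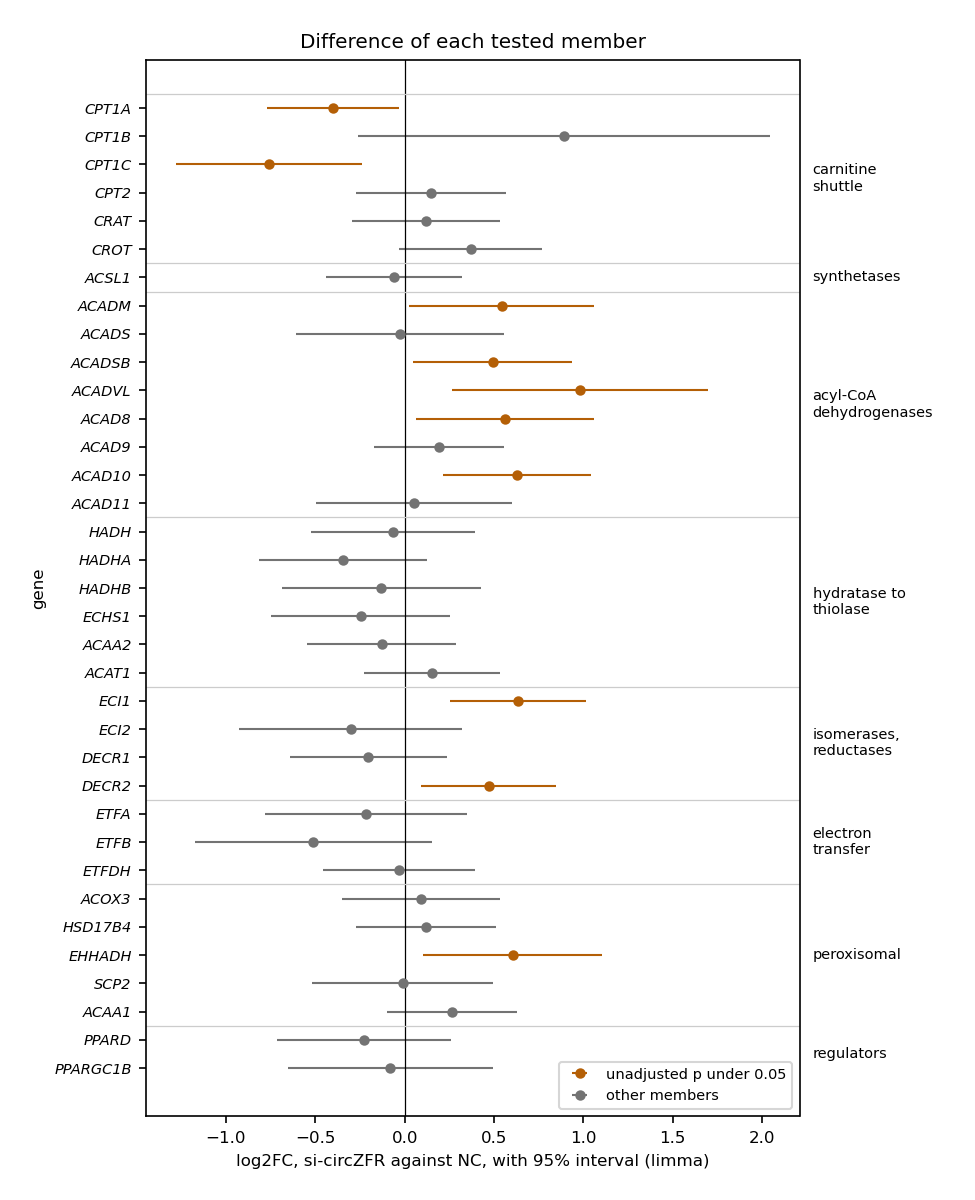
Difference of si-circZFR against NC for the 35 genes tested, as log2FC of log2(scaled RPKM + 1) with its 95% interval from limma over 2 libraries a group. Orange marks the 10 genes (28.6%) with an unadjusted p under 0.05, against 21.6% of all genes tested. Of these 10, 5 are acyl-CoA dehydrogenases, and none passed after adjustment.

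The carnitine shuttle did not move as a unit. *CPT1A*, the broadly expressed form of the rate-controlling carnitine palmitoyltransferase, stood at 18.7 and 17.3 in NC and at 13.7 and 13.1 in si-circZFR. Neither si-circZFR library reached an NC library, and their mean was 74.3% of the NC mean (log2FC = -0.40, standard error 0.15, unadjusted p = 0.0376, FDR = 0.206 by limma). Without scaling between libraries its log2FC was -0.24 with an unadjusted p of 0.210. *CPT1C*, the brain-type form, was much less abundant, at 1.26 and 1.71 in NC and at 0.419 and 0.504 in si-circZFR. These values rested on 43 and 58 reads in NC and on 14 and 18 reads in si-circZFR, and the groups did not overlap (log2FC = -0.76, standard error 0.21, unadjusted p = 0.0119, FDR = 0.137 by limma). *CPT1C* reached the RPKM of 1 needed for testing only in NC. A gene that enters this way can only be lower in si-circZFR without overlap, so its p-value carries no support. *CPT1B*, the muscle form, stood at 6.34 and 1.64 in NC and at 8.03 and 6.38 in si-circZFR. NC 2 was the low library, and NC 1 and si-circZFR 2 were nearly equal. Its log2FC of 0.89 (standard error 0.47, FDR = 0.320) became 0.15 without NC 2 and 1.62 without NC 1, where it was the 1 member called (FDR = 0.0249). *CPT1B* (GRCh38, chromosome 22, 50568861 to 50578465, minus strand) shares 66.4% of its exon bases with the read-through gene *CHKB-CPT1B*, so reads may be split between them. *CHKB-CPT1B* stood at 7.52 and 3.12 in NC and at 8.25 and 8.59 in si-circZFR. The neighbouring *CHKB*, a choline kinase, stood at 11.6 and 5.71 in NC and at 10.8 and 13.7 in si-circZFR, so all 3 transcripts of the locus were lowest in NC 2.

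As a share of the summed CPT1 level, *CPT1A* made up 71.1% and 83.8% in NC and 61.8% and 65.6% in si-circZFR. The share of *CPT1C* was 4.78% and 8.27% in NC and 1.89% and 2.52% in si-circZFR. *CPT2*, the inner membrane enzyme, stood at 5.05 and 6.26 in NC and at 6.29 and 6.40 in si-circZFR (log2FC = 0.15, 95% interval -0.27 to 0.57, FDR = 0.638). The ratio of *CPT1A* to *CPT2* was 3.71 and 2.77 in NC and 2.17 and 2.05 in si-circZFR. *CRAT* and *CROT*, which transfer acetyl and medium-chain groups to carnitine, had log2FC of 0.12 and 0.37, and *CROT* did not overlap between groups.

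**Figure D3:**
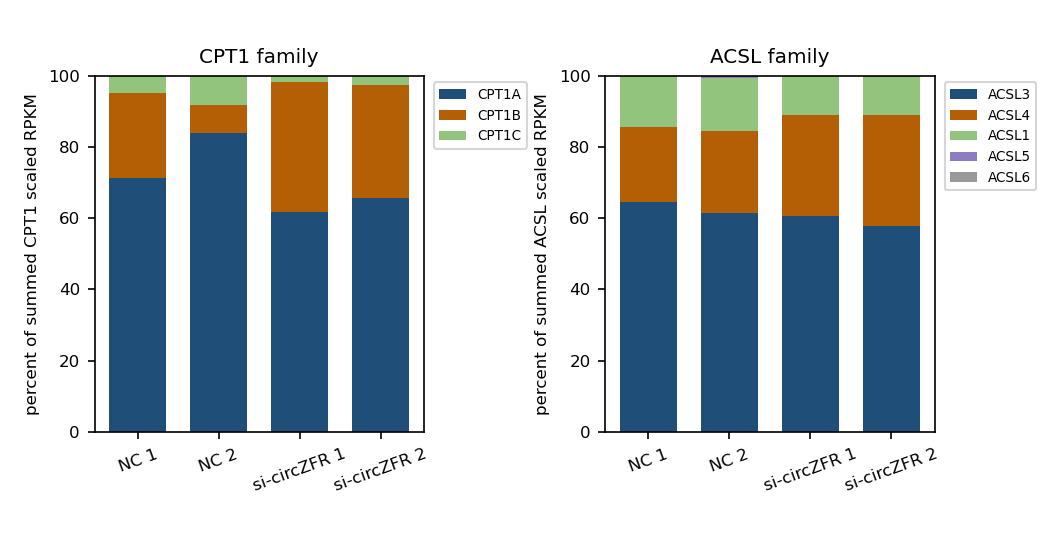
Share of each family member in the summed scaled RPKM of the CPT1 genes (left) and of the ACSL genes (right), in percent, for each library. *CPT1A* is the largest part of its family in all 4 libraries, and *CPT1B* is smallest in NC 2, at 7.94%; *ACSL4* takes 21.0% and 23.0% in NC and 28.5% and 31.3% in si-circZFR.

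Of the acyl-CoA synthetases chosen, *ACSL1* had a mean of 8.70 ± 0.669 in NC and 8.31 ± 0.185 in si-circZFR (SD, n = 2 each) and overlapped between groups. *ACSL5* stood between 0.126 and 0.357, on 5 to 14 reads a library, and was not tested. Neither is the main synthetase by level. *ACSL3*, an endoplasmic reticulum and lipid droplet enzyme outside the 38, made up 57.7% to 64.7% of the summed ACSL level. *ACSL4*, which prefers arachidonic acid, stood at 12.3 and 14.0 in NC and at 22.4 and 24.0 in si-circZFR. Its log2FC was 0.78 (standard error 0.16, unadjusted p = 0.00285, FDR = 0.0935).

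The acyl-CoA dehydrogenases, which carry out the first step of beta-oxidation in mitochondria or break down branched chains, were mostly higher in si-circZFR. Of 8 tested, 7 had a log2FC above 0, with a median of 0.52. In 6 of them both si-circZFR libraries lay above both NC libraries, and 5 had an unadjusted p under 0.05. Over all genes tested, 28.3% lay above in this way and 10.2% were higher at that p. None passed the threshold. With a smooth correction for transcript length 4 had an unadjusted p under 0.05. Under the 14 other settings tried, 7 or 8 of the 8 were higher, while the number with an unadjusted p under 0.05 was 3 without NC 1, 2 without si-circZFR 1, 0 without si-circZFR 2 and 2 without a filter on low values.

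*ACADVL* (GRCh38, chromosome 17, 7217125 to 7225266, plus strand), the very long-chain dehydrogenase of the inner membrane, had the highest mean of the 38 genes in both groups, although in NC it did not differ from *HADHA* beyond the spread of the libraries. It stood at 115.7 and 128.5 in NC and at 185.9 and 313.6 in si-circZFR. The 2 si-circZFR libraries were both above NC but far from each other. The log2FC was 0.98 (standard error 0.29, 95% interval 0.27 to 1.70, unadjusted p = 0.0156, FDR = 0.151 by limma). Without si-circZFR 2 it was 0.62 with an unadjusted p of 0.102, and without si-circZFR 1 it was 1.37. *ACADVL* made up 14.7% and 13.4% of the summed level of the 38 genes in NC and 21.6% and 31.1% in si-circZFR. The sum of all 38 was 789.2 and 960.2 in NC and 860.3 and 1009 in si-circZFR. Without *ACADVL* the sum of the other 37 was 673.5 and 831.7 in NC and 674.4 and 695.6 in si-circZFR, with both si-circZFR libraries between the NC libraries.

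*ACAD10*, a member of the family with a kinase-like region, stood at 6.86 and 5.80 in NC and at 9.71 and 11.0 in si-circZFR, with no overlap. It had the smallest unadjusted p of the family (log2FC = 0.63, standard error 0.17, unadjusted p = 0.00999, FDR = 0.130). *ACAD8*, the isobutyryl-CoA dehydrogenase of valine breakdown, stood at 4.11 and 2.87 in NC and at 5.20 and 5.93 in si-circZFR (log2FC = 0.56, standard error 0.20, FDR = 0.195). *ACADSB*, the short branched-chain dehydrogenase of isoleucine breakdown, stood at 1.84 and 2.23 in NC and at 3.45 and 3.08 in si-circZFR (log2FC = 0.49, standard error 0.18, FDR = 0.200). *ACADM*, the medium-chain dehydrogenase, stood at 5.51 and 7.74 in NC and at 9.01 and 11.1 in si-circZFR (log2FC = 0.54, standard error 0.21, FDR = 0.216). In all 4 genes the si-circZFR libraries lay above the NC libraries. Among these 4, the NC libraries were farthest from each other in *ACAD8*, where NC 1 was the higher, and in *ACADM*, where NC 2 was.

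The other dehydrogenases differed less. *ACAD9*, which also serves in complex I assembly, went from 11.7 ± 0.231 to 13.5 ± 0.321 (SD, n = 2 each) with a log2FC of 0.19 and an FDR of 0.479. *ACADS*, the short-chain enzyme, had a log2FC of -0.03 and *ACAD11* one of 0.05, and both overlapped.

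For the dehydrogenases with the largest difference and the smallest unadjusted p, *ACADVL* and *ACAD10*, the 250 bases before a RefSeq start of transcription are shown from GRCh38.p14. The *ACADVL* window is chr17:7219688-7219937 on the plus strand, and the *ACAD10* window is chr12:111685803-111686052 on the plus strand. Capitals mark the GC box GGGCGG on either strand, which occurs 2 times before *ACADVL* and 1 time before *ACAD10*. For *ACADVL* the first RefSeq window holding a GC box was taken, so the presence of the box there was fixed by this choice. That window lies inside the gene as positioned above.
ACADVL: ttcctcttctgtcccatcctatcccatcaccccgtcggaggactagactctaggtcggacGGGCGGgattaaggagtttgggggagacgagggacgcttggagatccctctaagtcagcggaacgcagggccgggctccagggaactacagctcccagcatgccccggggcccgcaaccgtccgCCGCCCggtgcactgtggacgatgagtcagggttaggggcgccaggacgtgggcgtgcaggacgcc
ACAD10: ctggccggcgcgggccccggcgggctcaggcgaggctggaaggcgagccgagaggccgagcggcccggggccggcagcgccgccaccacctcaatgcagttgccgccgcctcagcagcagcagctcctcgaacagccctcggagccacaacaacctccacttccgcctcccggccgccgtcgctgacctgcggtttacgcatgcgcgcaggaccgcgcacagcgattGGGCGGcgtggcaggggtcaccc
GC content was 65.6% in the *ACADVL* window and 74.4% in the *ACAD10* window. The *ACAD10* window also holds the NRF1 core GCGCATGC, in lower case here and read on the opposite strand.

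Genes of the later steps of the cycle did not follow the dehydrogenases. Of the 6 genes for the hydratase, hydroxyacyl-CoA dehydrogenase and thiolase steps, 5 were lower and 1 higher, with a median log2FC of -0.13, and none had an unadjusted p under 0.05. Without scaling between libraries 4 of the 6 were higher, and without NC 2 also 4 of 6. Without NC 1, 2 of them were lower with an unadjusted p under 0.05. The values per library of *HADHA* and *HADHB* are given by a choice made after they were seen. *HADHA*, the alpha subunit of the trifunctional protein for long chains, stood at 108.6 and 133.6 in NC and at 96.8 and 92.3 in si-circZFR, with no overlap (log2FC = -0.35, 95% interval -0.82 to 0.12, FDR = 0.338). *HADHB*, its beta subunit, stood at 42.0 and 62.1 in NC and at 48.1 and 45.1 in si-circZFR, and the groups overlapped. The ratio of *HADHA* to *HADHB* was 2.59 and 2.15 in NC and 2.01 and 2.05 in si-circZFR. The processed copies *HADHAP1* and *HADHAP2* held 13 to 63 reads a library and may take reads from *HADHA*. *ECHS1*, the short-chain hydratase, *HADH*, the short-chain dehydrogenase, and *ACAA2*, a thiolase, had log2FC of -0.25, -0.07 and -0.13. *ACAT1*, the thiolase that also acts on ketone bodies, had a log2FC of 0.15.

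*HADHA* and *HADHB* encode subunits of the same complex and are transcribed away from each other from RefSeq starts 307 bases apart on chromosome 2. The distance depends on the starts taken. In GENCODE *HADHA* reaches 26244672 and *HADHB* begins at 26243170, so the 2 gene spans overlap and part of the window below lies inside *HADHA*. The 250 bases before *HADHA* (GRCh38.p14, chr2:26244633-26244882, minus strand) are shown because both genes share this region. Capitals mark the 194 bases that also lie in the 250 bases before *HADHB*.
HADHA: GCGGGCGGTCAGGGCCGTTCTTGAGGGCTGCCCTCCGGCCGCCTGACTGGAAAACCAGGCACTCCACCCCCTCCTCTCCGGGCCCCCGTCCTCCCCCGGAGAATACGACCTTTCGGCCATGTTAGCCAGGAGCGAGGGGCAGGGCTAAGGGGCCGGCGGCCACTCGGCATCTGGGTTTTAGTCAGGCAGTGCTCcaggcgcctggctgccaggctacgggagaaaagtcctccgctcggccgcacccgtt
The ratios of the transcripts given above, 2.15 and 2.59 in NC, lay farther apart than the ratios in si-circZFR.

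Among the auxiliary enzymes for unsaturated chains, *ECI1* and *DECR2* were higher in si-circZFR while *ECI2* and *DECR1* had log2FC below 0. *ECI1* (GRCh38, chromosome 16, 2239402 to 2252300, minus strand), the mitochondrial enoyl-CoA isomerase, stood at 10.2 and 10.4 in NC and at 15.6 and 17.6 in si-circZFR. The NC libraries were close together and both si-circZFR libraries lay above them. Its unadjusted p was the smallest of the 35 genes (log2FC = 0.64, standard error 0.15, 95% interval 0.26 to 1.02, unadjusted p = 0.00662, FDR = 0.116 by limma). The log2FC was between 0.56 and 0.80 under the other settings tried. *DECR2*, the peroxisomal dienoyl-CoA reductase, stood at 5.22 and 5.47 in NC and at 7.56 and 8.02 in si-circZFR (log2FC = 0.47, standard error 0.15, FDR = 0.172). *DECR2* shares 14.3% of its exon bases with *NME4* on the same strand, and *NME4* was far more abundant, at 82.9 to 128.8. *ECI2*, the isomerase found in both organelles, had a mean of 39.5 ± 13.5 in NC and 30.9 ± 1.03 in si-circZFR (SD, n = 2 each), with NC 2 as the high library. *DECR1*, the mitochondrial reductase, had a log2FC of -0.20, and its groups overlapped.

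The 250 bases before a RefSeq start of *ECI1* (GRCh38.p14, chr16:2251588-2251837, minus strand) are shown because this gene had the smallest unadjusted p. As for *ACADVL*, the window lies inside the gene as positioned above, which reaches 2252300. Capitals mark 3 copies of the GC box on either strand.
ECI1: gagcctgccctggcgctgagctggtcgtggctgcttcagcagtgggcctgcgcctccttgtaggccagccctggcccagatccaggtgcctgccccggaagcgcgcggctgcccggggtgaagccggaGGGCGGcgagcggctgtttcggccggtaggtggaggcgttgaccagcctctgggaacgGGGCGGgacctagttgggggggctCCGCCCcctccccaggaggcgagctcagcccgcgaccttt

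All 3 genes of electron transfer from the dehydrogenases to ubiquinone had a log2FC below 0, and none had an unadjusted p under 0.05. *ETFB*, the beta subunit of the flavoprotein, stood at 69.8 and 87.1 in NC and at 42.9 and 68.9 in si-circZFR. The groups did not overlap, but NC 1 and si-circZFR 2 were nearly equal and si-circZFR 1 was the low library (log2FC = -0.51, standard error 0.27, FDR = 0.322). Without si-circZFR 1 the log2FC was -0.16, and without si-circZFR 2 it was -0.83. *ETFA*, the alpha subunit, and *ETFDH*, the membrane dehydrogenase that passes the electrons on, had log2FC of -0.22 and -0.03 and overlapped. The ratio of *ETFA* to *ETFB* was 1.04 and 1.21 in NC and 1.85 and 1.03 in si-circZFR, so si-circZFR 1 stood apart from the other libraries. Without scaling between libraries 2 of the 3 were lower and 1 was higher. With a smooth correction for transcript length the median log2FC of the 3 was -0.07, against -0.22 in the main fit.

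In peroxisomal oxidation, *EHHADH*, the bifunctional enzyme with hydratase and dehydrogenase activity, stood at 1.25 and 1.84 in NC and at 3.01 and 2.68 in si-circZFR. Both si-circZFR libraries lay above NC, on 58 and 85 reads in NC and 137 and 130 reads in si-circZFR (log2FC = 0.60, standard error 0.20, unadjusted p = 0.0260, FDR = 0.178). *ACAA1*, the peroxisomal thiolase, had a mean of 15.8 ± 0.0428 in NC and 19.2 ± 0.831 in si-circZFR (SD, n = 2 each), a log2FC of 0.27 with an FDR of 0.343. *ACOX3*, an oxidase for branched chains, *HSD17B4*, the second bifunctional enzyme, and *SCP2*, a sterol carrier with thiolase activity, had log2FC of 0.09, 0.12 and -0.01, and all 3 overlapped.

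The transcriptional regulators were low, with ranks 24, 35, 36 and 38 of the 38 genes in NC. *PPARD* was the most abundant of the 4, at 6.10 and 5.18 in NC and at 5.42 and 3.98 in si-circZFR, and its groups overlapped (log2FC = -0.23, 95% interval -0.72 to 0.26, FDR = 0.529). *PPARGC1B* stood at 1.81 and 1.02 in NC and at 1.31 and 1.20 in si-circZFR (log2FC = -0.08, FDR = 0.862), and its sign turned without scaling between libraries (0.012) and without NC 1 (0.15). *PPARA* stood at 0.679 and 0.437 in NC and at 0.886 and 0.757 in si-circZFR, on 51 to 102 reads a library. The groups did not overlap, and the gene was below the filter and was not tested. *PPARGC1A*, the PGC-1 alpha gene, had 0 to 3 reads a library and was not tested, so a difference was not detectable at this depth.

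The order of levels was similar in both groups. *ACADVL*, *HADHA*, *ECHS1*, *ETFA*, *ETFB*, *HADHB* and *ECI2* held ranks 1 to 7 in NC and in si-circZFR, and *ACADVL* and *HADHA* did not differ beyond their spread in NC (122.1 ± 9.03 and 121.1 ± 17.7, SD, n = 2 each). In si-circZFR *ACADVL* stood at 249.7 ± 90.3 and *HADHA* at 94.6 ± 3.13 (SD, n = 2 each). The place of *CPT1A* went from rank 11 to 17 and that of *ECI1* from 19 to 13.

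The spread between the NC libraries was of the size of the differences between groups. In 24 of the 35 genes NC 2 was higher than NC 1, with a median of 0.19 on the log2 scale, against 0.00 over all genes tested. In 17 of the 35 the NC libraries differed from each other by more than the groups did. The hydratase to thiolase genes had a median of 0.33 for NC 2 over NC 1, and the acyl-CoA dehydrogenases one of 0.06. The part of this spread in the differences between roles was not tested.

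**Figure D4:**
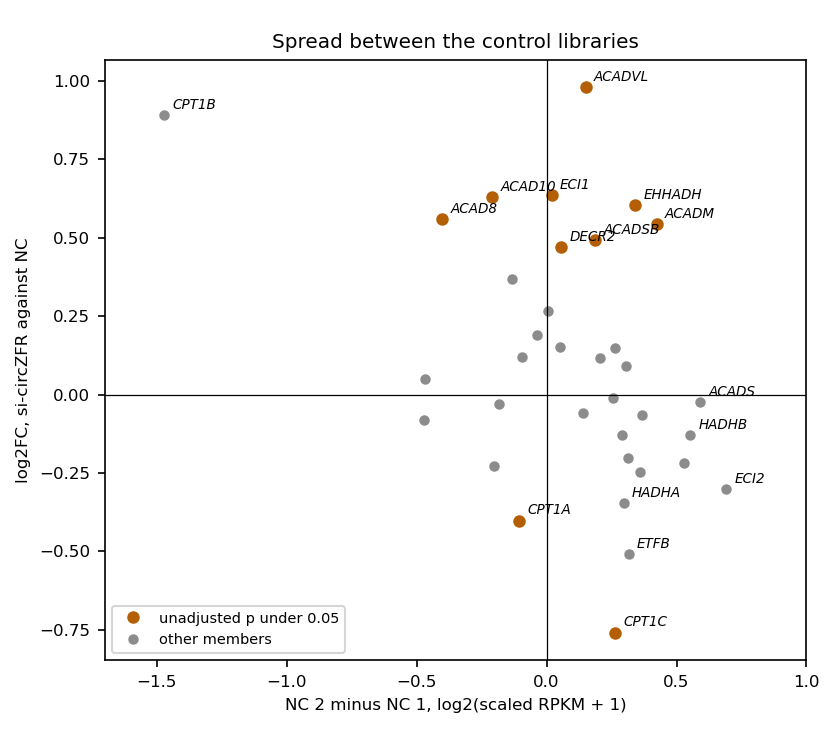
For each of the 35 genes tested, the difference of NC 2 from NC 1 (horizontal axis, log2(scaled RPKM + 1)) is plotted against the log2FC of si-circZFR over NC (vertical axis). *CPT1B* lies far to the left because NC 2 is low, and most genes lie to the right of 0. *ECI1*, *DECR2* and *ACADVL* combine a difference between groups of 0.47 to 0.98 with NC libraries close to each other. *CPT1A* does so in the lower direction, at -0.40. The si-circZFR libraries, not plotted here, differ by 0.75 in *ACADVL*, 0.17 in *ECI1* and 0.08 in *DECR2*.

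A promoter window was found in RefSeq for 30 of the 38 genes (30 matched by symbol), and letters of 7 motifs were searched on both strands of the 250 bases before each start. A gene with several starts counted when any of its windows held the letters. The GC box GGGCGG was in 25 of the 30 (83.3%), against 62.1% of 15843 protein-coding genes with a window. The ETS motif CCGGAAG was in 4 of 30 (14% of coding genes), among them *ECI1*, *CPT2* and *ETFB*. The NRF1 core GCGCATGC was in 3 (4.34%), namely *ACAD10*, *CPT1C* and *PPARA*. The E-box CACGTG was in 2 (9.73%) and the CREB site TGACGTCA in 2 (2.73%). The ERR alpha site TCAAGGTCA was in 0 of 30 (0.303%), as was the PPAR-RXR direct repeat with 1 spacer base (0.0189%). The letters AGGTCA belong to both of the last motifs. Such a match of letters is not a binding site.

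Other genes of the pathway were taken from lists. Of 24 further fatty acid oxidation and carnitine genes, 20 were tested, of which 16 had a log2FC above 0, 4 with an unadjusted p under 0.05, and 0 were called. These 4, all higher, are 20% of the list. Over all genes tested, 21.6% had such a p in either direction and 10.2% were higher. *MLYCD*, which breaks down malonyl-CoA, the inhibitor of CPT1, stood at 2.64 and 2.63 in NC and at 4.93 and 5.36 in si-circZFR (log2FC = 0.76, standard error 0.16, unadjusted p = 0.00382, FDR = 0.0992 by limma). *SLC25A20*, the carnitine-acylcarnitine carrier of the inner membrane, stood at 2.16 and 1.82 in NC and at 3.83 and 3.93 in si-circZFR (log2FC = 0.71, standard error 0.17, FDR = 0.118). With *ACSL4*, these were the 3 genes of the list with the smallest unadjusted p, and in each of them both si-circZFR libraries lay above NC. Without si-circZFR 2 the list held 2 genes at that p, and without NC 1 its 20 genes split into 10 lower and 10 higher, with 2 lower and 5 higher at that p. Of 5 ketone body genes 3 were tested and none had an unadjusted p under 0.05.

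In peroxisome biogenesis, 15 of 16 genes were tested, and 3 were lower with an unadjusted p under 0.05 and 0 higher. The 3 are 20% of the list, against 21.6% of all genes tested in either direction and 11.5% lower. The 3 became 1 without NC 2 or without si-circZFR 1 and 2 without si-circZFR 2. *PEX7*, an import receptor, stood at 1.55 and 2.23 in NC and at 0.410 and 0.912 in si-circZFR (log2FC = -0.81, standard error 0.25, FDR = 0.160). *PEX19*, a chaperone for peroxisomal membrane proteins, stood at 12.8 and 15.5 in NC and at 9.30 and 9.78 in si-circZFR (log2FC = -0.51, standard error 0.17, FDR = 0.171). In both genes the si-circZFR libraries lay below the NC libraries. The list as a whole did not share this direction, with 7 of the 15 genes lower, 8 higher and a median log2FC of 0.02. Of the 5 peroxisomal oxidation genes given above, 1 had a log2FC below 0 and 4 above.

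Of 13 PPAR target genes outside the oxidation enzymes, 9 were tested. At an unadjusted p under 0.05 there was 1 of them (11.1%, against 21.6% of all genes tested), *VLDLR*, a lipoprotein receptor. It stood at 11.6 and 12.8 in NC and at 17.5 and 18.9 in si-circZFR (log2FC = 0.54, standard error 0.15, FDR = 0.143). The count became 0 without si-circZFR 1 or without si-circZFR 2 and 2 without NC 1. Among 10 nuclear receptor partners and coregulators, 9 were tested and none had an unadjusted p under 0.05.

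Neighbouring pathways are given for comparison, without a test of the difference. Of 17 citric acid cycle genes, all tested, 15 were lower and 2 higher, 3 of them lower with an unadjusted p under 0.05, and the median log2FC was -0.24. The 3 became 8 without NC 1, 1 without NC 2 or si-circZFR 2 and 0 without si-circZFR 1. The count over all genes tested moved too, from 3006 in either direction to 4797 without NC 1, 2546 without NC 2, 1599 without si-circZFR 1 and 1070 without si-circZFR 2. The 3 lower genes are 17.6% of the list, against 11.5% of all genes tested. Of 14 fatty acid synthesis genes, all tested, 6 were lower and 8 higher, with a median of 0.09. At an unadjusted p under 0.05 were 1 lower and 3 higher, together 28.6% of the list, against 21.6% of all genes tested. Without si-circZFR 1 or without si-circZFR 2 these became 0 and 1, and without si-circZFR 1 the split was 8 lower and 6 higher with a median of -0.03. None of these 31 genes was called. Without scaling between libraries the median over all genes tested shifted to 0.15, and those of the fatty acid oxidation, citric acid cycle and synthesis genes to 0.16, -0.07 and 0.26.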

How the data were processed

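The 4 libraries were sequenced on the Ion Proton from total RNA. The authors deposited RPKM values per gene, which carry no sign of scaling between libraries. The sources name GRCh37 (submitters' processing notes) and hg38 (article), and aligner, annotation and strand setting are not given in the sources used here. The article's batch removal by SVA and its count test were not repeated, and limma-voom on recovered reads was run as an alternative. Reads were recovered by finding, for each gene, the smallest length that makes its values whole reads (tolerance 0.02). This gave whole reads for 24284 of 24289 genes above 0, and between 97.9% and 98.3% of each library total.

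Libraries were brought to a common scale with trimmed means (30% trimmed from log ratios, 5% from levels), with factors from 0.906 to 1.11. Genes reaching an RPKM of 1 in 2 or more libraries were tested by limma on log2(scaled RPKM + 1), two-sided, with the prior variance trended on level and Benjamini-Hochberg adjustment over all genes tested. On this scale, fold changes of low genes are understated. A gene was called at FDR under 0.05 and |log2FC| over 1, and intervals are at 95%. The exact permutation test of 2 against 2 libraries cannot reach 0.05 and was not used. Values per library are given for genes with an unadjusted p under 0.05 or |log2FC| over 0.5, for the CPT1, CPT2, PPAR and PGC-1 genes, for up to 3 genes a related list and for ZFR. Results for some of these genes are not reported here. The members and lists were chosen with earlier results of these data known. Positions came from GRCh38 (GENCODE) and promoters from RefSeq by symbol, whichever build the authors used. ACAA1, ACAD11, CPT1B, CRAT, DECR1, DECR2, EHHADH and ETFDH had no promoter entry. Software was R 4.3.3, limma 3.58.1, Python 3.11.15, numpy 2.4.6, pandas 2.3.3 and matplotlib 3.10.9.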

Additional observations from a re-analysis of the deposited data

How the results depend on the processing

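With 2 libraries a group, each test has few degrees of freedom. The number of members called was 0 under the other settings tried except without NC 1, where it was 1. The number of all genes called, 8, was 176 with a filter of CPM above 1, 288 with limma-voom, 15 with the length correction, 5 with a pseudocount of 0.1 or 0.5, 1 without a trend and 0 without a filter. Leaving out 1 library gave 0 to 1036 genes called and 1070 to 4797 genes with an unadjusted p under 0.05, and among members 0 to 7 higher and 0 to 4 lower at that p and 22 to 30 without overlap. The highest number called came without NC 1 (1036). With 1 library left in a group, groups separate more easily. The counts without overlap then cannot be set against the count from all libraries, and no share over all genes was taken. Without a filter 5 members were higher at an unadjusted p under 0.05, and without scaling 1 was lower. With the length correction 6 members were higher and 2 lower at that p, and ACADSB and EHHADH were no longer among them. The causes were not tested. With the replicate number as a block, 17 genes and 0 members were called. The deviations of same-numbered libraries correlated at 0.0694 across genes, and 2 pairs cannot show a pairing. The log2FC of PPARGC1B reversed to 0.012 without scaling and to 0.15 without NC 1, and was -0.32 without NC 2. The other named genes kept their direction. ZFR passed the threshold in 9 of 14 settings, and its log2FC stayed between -2.54 and -2.17. CPT1C was not tested when an NC library was left out. The members had a median log2FC of 0.02 to 0.16 across settings.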
